A study of Mus musculus with 20 samples.

Results

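Rfx5 and 9 genes of the antigen presentation pathway were followed heart by heart in 2 mouse models of Down syndrome. The 10 genes, out of 48795 in the expression table, are the transcription factor gene Rfx5, its partner genes Rfxap and Rfxank, the co-activator genes Nlrc5 and Ciita, and the class I genes B2m, H2-K1, H2-D1, Tap1 and Tapbp. Rfx5 was picked because its values were lower in the hearts of both mutant strains, so its levels are given here as a description and were not tested. The other 9 genes were picked for their known role as partners or targets of RFX5, and were tested. All 10 were present in the table, and 8 of them passed the filter on low values in each strain comparison, while Nlrc5 and Ciita did not.

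Dp3Tyb and Ts1Rhr mice carry an extra copy of a segment of chromosome 16 that is orthologous to part of human chromosome 21, and the Ts1Rhr segment lies within that of Dp3Tyb. Whole hearts were taken at E13.5 (E, embryonic day) from 5 Dp3Tyb embryos and 5 wild-type (WT) littermates, labelled wt_d, and from 5 Ts1Rhr embryos and 5 WT littermates, labelled wt_t. All mice were kept on a C57BL/6J background. The study describes septal and other heart defects in Dp3Tyb and none in Ts1Rhr, while the labels of 2 of the 5 Ts1Rhr hearts name a defect, and all hearts were grouped by genotype. Both duplications are present in every cell of the embryo, and each strain was compared only with its own WT group. Both comparisons ask which members differ with an extra copy of a region in which none of them lies, since Ciita is the only one on chromosome 16 and is outside both segments.

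RFX5 forms a complex with RFXAP and RFXANK that binds the X box of promoters of major histocompatibility complex (MHC) genes, next to CREB family factors on the adjoining X2 box and the NFY complex on the Y box. The co-activator CIITA joins this complex at class II promoters and NLRC5 joins it at class I promoters. Class I molecules consist of a heavy chain, encoded by H2-K1 or H2-D1 in these mice, and the light chain β2-microglobulin, encoded by B2m. They are loaded with peptides in the endoplasmic reticulum, into which the TAP1 and TAP2 transporter brings peptides and where tapasin, the product of Tapbp, holds the heavy chain beside the transporter. Embryonic tissues are known for low class I levels and for few of the cells that present antigen on class II.

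The promoters of the genes that encode both chains of class I molecules are shown because class I promoters are known targets of RFX5, and the letters of the boxes were searched in them. The RefSeq promoter table (GRCm38.p6) held 7 of the 10 members, with no entry for Rfxap, Nlrc5 and Ciita. The 250 bases before each start in that table were searched on both strands for the X2 core TGACG, the Y box core ATTGG, the RFX half-site GCAAC and the interferon element, which is GAAA, any 2 bases and GAAA. The table held a pair of starts for H2-K1, and the one farther upstream is shown. The windows of H2-K1 and Rfx5 lie inside the annotated spans of these genes, since their starts in the table are downstream of the outermost start. Capitals mark the matches, and a match on the other strand appears as its reverse complement (CCAAT for the Y core, GTTGC for the half-site). They are written 5′ to 3′ in the direction of the gene.
B2m, chr2:122147437-122147686, plus strand: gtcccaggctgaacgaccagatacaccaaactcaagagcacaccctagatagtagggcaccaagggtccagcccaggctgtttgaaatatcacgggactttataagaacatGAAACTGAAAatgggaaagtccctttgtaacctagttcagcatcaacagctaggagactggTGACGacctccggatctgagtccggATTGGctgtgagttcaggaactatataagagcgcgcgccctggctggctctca
H2-K1, chr17:34000348-34000597, minus strand: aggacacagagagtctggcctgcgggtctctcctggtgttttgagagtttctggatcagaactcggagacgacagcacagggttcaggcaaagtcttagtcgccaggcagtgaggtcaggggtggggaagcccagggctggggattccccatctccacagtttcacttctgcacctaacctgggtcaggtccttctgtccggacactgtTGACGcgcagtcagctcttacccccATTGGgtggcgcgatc
H2-D1, chr17:35262844-35263093, plus strand: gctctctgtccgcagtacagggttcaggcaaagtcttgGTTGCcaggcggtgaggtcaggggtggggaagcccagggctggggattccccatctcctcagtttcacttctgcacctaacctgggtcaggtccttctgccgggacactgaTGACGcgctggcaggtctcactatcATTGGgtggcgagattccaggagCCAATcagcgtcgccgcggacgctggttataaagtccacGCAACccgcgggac

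In all 3 promoters TGACG was followed after exactly 20 bases by ATTGG on the coding strand. That spacing was noticed in these 3 sequences and then searched in all promoters, where 30 of 32851 windows of the same length (0.0913%), of 26 genes, held it. The 3 members were among those 26 genes, as was the class I gene H2-M3. Taken alone, TGACG was found in 4 of the 7 members with an entry (B2m, H2-K1, H2-D1 and Tap1) and in 17.8% of all promoters. ATTGG was found in 7 of the 7, Rfx5 included, and in 33.8% of all promoters. The RFX half-site GCAAC was found in 3 of the 7 (Rfx5, Tap1 and H2-D1), not in the windows of B2m and H2-K1, and in 29.9% of all, and the interferon element in B2m and in 2.98% of all. GCAAC followed by ATTGG after 23 to 33 bases was in none of the 7 and in 0.411% of all promoters. Such a match describes letters in a window and does not show that a factor was bound.

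Rfx5, at chr3:94950689-94961561 (GRCm38.p6), had lower values in both strains, and each mutant heart was below all 5 of its WT littermates. A level is given as a normalised read count, which is the reads of a gene divided by a factor for the size of the library. In WT littermates of Dp3Tyb (replicates 1 to 5) Rfx5 stood at 412, 403, 419, 440 and 611. In Dp3Tyb hearts it stood at 307, 340, 308, 326 and 373. The highest Dp3Tyb heart was thus below the lowest WT heart, and WT replicate 5 stood well above its littermates.

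WT littermates of Ts1Rhr had 507, 474, 428, 614 and 437. Ts1Rhr hearts had 345, 405, 296, 296 and 335. Here too the groups did not overlap, with a highest Ts1Rhr value of 405 and a lowest WT value of 428.

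**Figure D1:**
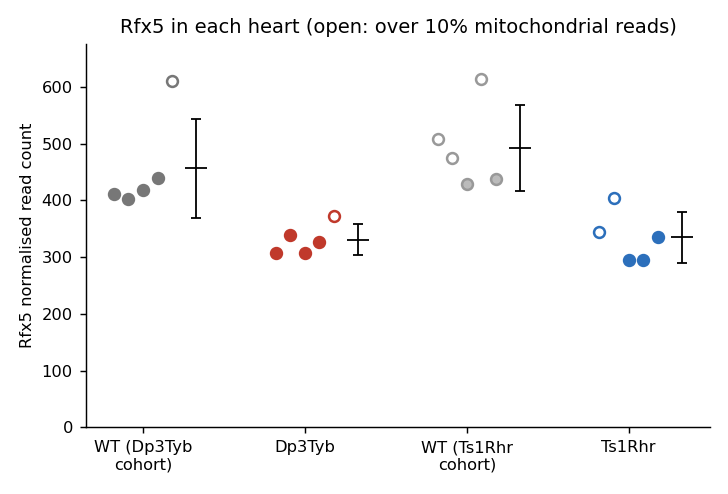
Rfx5 normalised read count (vertical axis, from 0) in each of the 20 hearts by group, with open circles for libraries with over 10% mitochondrial reads and black bars for the mean and SD of 5 hearts. Mutant hearts lie at 296 to 405 and WT hearts at 403 to 614, and each mutant group lies wholly below its own WT group.

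Mean Rfx5 was 331 ± 27.6 in Dp3Tyb and 457 ± 87.1 in its WT littermates (SD, n = 5 each), a difference of -27.6%. It was 335 ± 45.0 in Ts1Rhr and 492 ± 75.1 in its WT littermates (SD, n = 5 each), a difference of -31.9%. The log2 fold change, taken on log2(value + 1), was -0.45 ± 0.12 in Dp3Tyb and -0.55 ± 0.12 in Ts1Rhr (SE). Against the mean of its own WT group, Rfx5 stood at 67.1% to 81.7% in single Dp3Tyb hearts and at 60.0% to 82.3% in single Ts1Rhr hearts. Each of these values rested on 267 to 459 reads in the mutant hearts and on 208 to 589 reads in the WT hearts.

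Since Rfx5 was chosen for these values, the following counts describe the choice. The groups did not overlap, with the mutant lower, for 0.474% of the 14763 genes tested in Dp3Tyb and for 0.498% of the 14867 tested in Ts1Rhr. Of 14605 genes tested in both, 5 (0.0342%) were lower without overlap in both strains, namely Ky, Ddc, Rfx5, Nsd2 and H1f0. The log2 fold changes of the other 4 were between -1.21 and -0.14 in Dp3Tyb, and between -0.90 and -0.16 in Ts1Rhr. In RNA of whole hearts, fewer cells that express a gene and less RNA of it per cell cannot be told apart.

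Libraries held 6.60 to 19.6 M reads (mega, M) and 4.85% to 19.5% of reads from genes encoded by mitochondrial DNA, with over 10% in 7 libraries. These were WT replicate 5 and Dp3Tyb replicate 5 of the Dp3Tyb cohort (a strain with its WT littermates), and WT replicates 1, 2 and 4 and Ts1Rhr replicates 1 and 2 of the other cohort. Each group held 3 female and 2 male hearts. All 8 cardiomyocyte markers, Myh6 and Tnnt2 among them, passed the filter in both cohorts, and 6 of 8 had negative log2 fold changes in each strain (medians -0.12 and -0.03 in Dp3Tyb and Ts1Rhr). Fibroblast and cushion markers were positive for 6 of 6 genes in Dp3Tyb and 5 of 6 in Ts1Rhr (medians 0.19 and 0.09), and erythroid markers for 5 of 5 in both strains (medians 0.13 and 0.32). Endothelial markers were positive for 5 and 6 of 8 genes (medians 0.04 and 0.07) and epicardial markers for 4 and 5 of 6 (medians 0.03 and 0.07). Of 4 liver markers 1 was tested (0.32 and -0.16). Lung and foregut markers were positive for 5 of 5 genes tested in Dp3Tyb (median 1.21) and negative for 5 of 5 in Ts1Rhr (median -1.63). None of these markers passed the test, and their part in the members' values was not tested.

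Rfx5 was higher in the libraries with a large mitochondrial share, at 345 to 614 with a median of 474 in the 7 and at 296 to 440 with a median of 340 in the other 13. Among libraries at or below 10%, the 4 Dp3Tyb hearts had 307 to 340 and the 4 WT littermates 403 to 440. The 3 Ts1Rhr hearts had 296 to 335 and the 2 WT littermates 428 to 437. Among libraries above 10%, the Dp3Tyb heart had 373 and its WT littermate 611, and the 2 Ts1Rhr hearts had 345 to 405 against 474 to 614 in 3 WT hearts. That the mutant values were the lower ones on both sides of 10% follows from groups that do not overlap and was not tested. With the mitochondrial share as a term in the fit its log2 fold change was -0.44 in Dp3Tyb and -0.46 in Ts1Rhr, and without the 7 libraries it was -0.39 and -0.49.

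**Figure D2:**
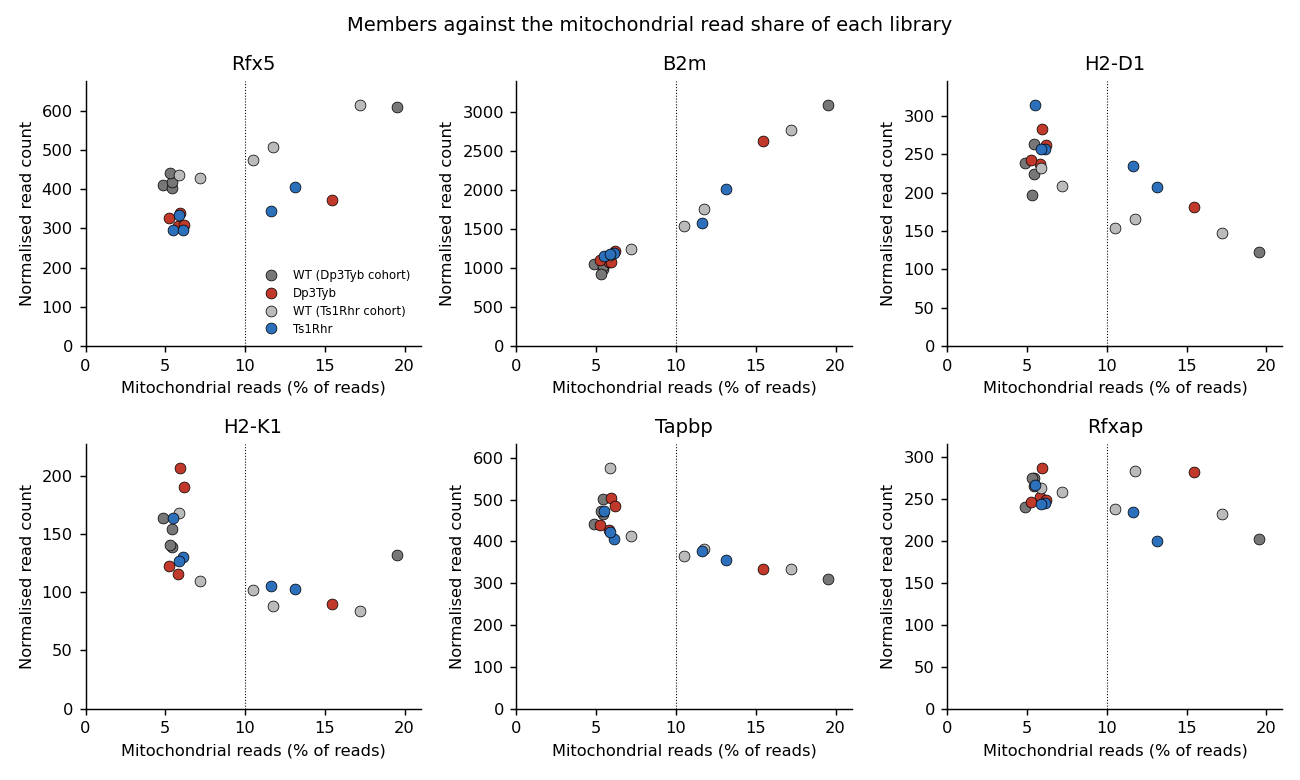
Normalised read count of 6 members (vertical axes, from 0) against the share of reads from mitochondrially encoded genes (horizontal axes, percent), with 1 point for each of 20 hearts coloured by group and a dotted line at 10%. B2m lies at 923 to 1244 below the line and at 1534 to 3086 above it, Tapbp lies lower above the line, and Rfx5 of the mutants, for which it was chosen, lies under that of their WT littermates.

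The 5 genes whose log2 levels followed Rfx5 most closely, as deviations from the 4 group means over the 20 libraries, were Dph6 (Pearson's r = 0.944), Bcl11a (0.934), Tpp2 (0.934), Cdk2ap1rt (0.934) and Rab6a (0.932), among 14604 other genes. The points share their library, its depth and its scaling, and the mitochondrial share of the library followed Rfx5 in the same way with r = 0.922. Dph6 acts in the synthesis of diphthamide, Bcl11a is a zinc finger repressor, Tpp2 is a cytosolic peptidase and Rab6a a GTPase of Golgi traffic. The groups of each of these 5 genes overlapped in both strains. Among the members, r with Rfx5 was 0.904 for B2m, -0.861 for H2-D1 and -0.780 for Tapbp, and it lay between -0.590 and -0.498 for Rfxap, Rfxank, H2-K1 and Tap1.

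Both partner genes of Rfx5 overlapped between mutant and WT hearts in each strain. Rfxap, which encodes the RFX associated protein, had 240, 265, 275, 275 and 203 in WT littermates and 252, 287, 249, 246 and 283 in Dp3Tyb hearts. It had 283, 238, 258, 232 and 263 in WT littermates and 235, 200, 266, 245 and 244 in Ts1Rhr hearts. The lowest value was that of a WT heart in the first cohort and of a mutant heart in the second.

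The log2 fold change of Rfxap was 0.07 ± 0.10 in Dp3Tyb and -0.10 ± 0.09 in Ts1Rhr (SE). Rfxank encodes the ankyrin repeat subunit of the complex. Its group means were 368 ± 18.8 in Dp3Tyb against 353 ± 24.9 in WT littermates and 364 ± 33.5 in Ts1Rhr against 377 ± 37.1 (SD, n = 5 each). Its log2 fold changes were 0.06 ± 0.07 and -0.05 ± 0.09. For both genes the 95% interval of limma, a linear model fitted across all genes, lay within -0.31 and 0.30 in both strains. The interval of Rfx5, given as a description, was -0.71 to -0.19 in Dp3Tyb, and -0.80 to -0.30 in Ts1Rhr. Since Rfx5 was chosen for its low values, this interval is not a test and cannot be weighed against those of its partners.

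The co-activator genes were at the limit of detection. Ciita, the class II co-activator, gave 61 reads over all 20 libraries, at most 9 in a library, and 0 in 4 libraries, where 0 reads allow a normalised count of up to 3.24 to 8.81 (3 reads, counting error only). Nlrc5, the class I co-activator, gave 91 reads in all and 0 in 1 library. Group means lay between 1.73 and 3.27 for Ciita and between 3.12 and 5.55 for Nlrc5. Nlrc5 rested on 25 reads in Dp3Tyb hearts against 15 in their WT littermates, and on 32 in Ts1Rhr hearts against 19. Ciita rested on 11 against 20 reads and on 18 against 12. The groups of both genes overlapped in both strains, and neither gene was tested.

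B2m, the light chain gene, was high in the libraries with a large mitochondrial share. In WT littermates of Dp3Tyb B2m stood at 1056, 984, 1026, 923 and 3086, and in Dp3Tyb hearts at 1075, 1081, 1218, 1106 and 2624. In WT littermates of Ts1Rhr it stood at 1752, 1534, 1244, 2773 and 1170, and in Ts1Rhr hearts at 1570, 2006, 1154, 1189 and 1177. High values were those of the 7 libraries with over 10% mitochondrial reads, which ranged from 1534 to 3086 without overlap with the 923 to 1244 of the other 13, as was so, with the 7 higher, for 8.40% of 15348 genes.

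B2m differed by 0.09 ± 0.35 in Dp3Tyb and by -0.22 ± 0.22 in Ts1Rhr (log2 fold change, SE), with 95% intervals from -0.69 to 0.86 and from -0.71 to 0.27. In Dp3Tyb its direction rested on single hearts, with 0.41 without WT replicate 5 and -0.16 without Dp3Tyb replicate 5. In Ts1Rhr it was -0.02 without WT replicate 4 and -0.35 without Ts1Rhr replicate 2. At or below 10% mitochondrial reads the 4 Dp3Tyb hearts had 1075 to 1218 and the 4 WT littermates 923 to 1056. These did not overlap, as was so, with the mutant higher, for 2.49% of the 14763 genes in the same 8 libraries. The same comparison in Ts1Rhr gave 1154 to 1189 in 3 hearts and 1170 to 1244 in 2 WT hearts. Without the 7 libraries the log2 fold change of B2m was 0.17 in Dp3Tyb (limma adjusted p = 0.438) and -0.04 in Ts1Rhr (limma adjusted p = 0.996).

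Of the heavy chains, H2-D1 had a higher mean than WT in both strains, though neither difference passed the test. H2-D1 had 239, 264, 224, 197 and 123 in WT littermates and 238, 283, 262, 243 and 182 in Dp3Tyb hearts. It had 166, 154, 209, 147 and 233 in WT littermates and 235, 208, 314, 257 and 257 in Ts1Rhr hearts. Each Ts1Rhr heart was above the WT mean, yet the lowest Ts1Rhr heart was below the highest 2 WT hearts.

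H2-D1 averaged 254 ± 39.2 in Ts1Rhr and 182 ± 37.2 in WT littermates (SD, n = 5 each). The log2 fold change was 0.49 ± 0.15 (SE, 95% interval 0.17 to 0.81), higher in 5 of 5 hearts than the WT mean, with an adjusted p of 0.795 by limma over all 14867 genes, so it did not pass the threshold of 0.05. Over 18 alternative settings the adjusted p ranged from 0.251 to 0.999 and the log2 fold change from 0.32 to 0.58. At or below 10% mitochondrial reads 3 Ts1Rhr hearts had 257 to 314 and 2 WT hearts 209 to 233. Above 10%, 2 Ts1Rhr hearts had 208 to 235 and 3 WT hearts 147 to 166. Splits of so few hearts separate easily, and the share of all genes that did so was not counted. In Dp3Tyb the log2 fold change of H2-D1 was 0.23 ± 0.20 (SE), with group means of 242 ± 37.9 and 210 ± 53.9 (SD, n = 5 each), and it was 0.06 without WT replicate 5 and 0.33 without Dp3Tyb replicate 5.

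H2-K1 had 163, 154, 139, 141 and 132 in WT littermates and 116, 207, 190, 122 and 89.5 in Dp3Tyb hearts. It had 88.5, 102, 109, 84.2 and 168 in WT littermates and 105, 102, 163, 130 and 126 in Ts1Rhr hearts. The Dp3Tyb hearts spread to both sides of their WT littermates, with an SD of 50.6 against 12.6. The log2 fold change was -0.08 ± 0.21 in Dp3Tyb and 0.21 ± 0.19 in Ts1Rhr (SE), where it was 0.11 without Ts1Rhr replicate 3, 0.37 without WT replicate 5 and 0.03 without the 5 libraries over 10% mitochondrial reads.

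H2-K1 and H2-D1 are close copies. Of all stretches of 50 bases in the transcripts of H2-K1, 11.3% also occur in other genes and 6.23% in H2-D1, and for H2-D1 these shares were 12.6% and 7.03% in H2-K1. How reads of such stretches were divided between genes is not given in the sources used here, so the levels of both genes are uncertain to that extent. Rfx5, Rfxap and B2m share no such stretch with another gene. The long non-coding gene B230398E01Rik overlaps Rfx5 on the opposite strand, and its group means were 2.65 to 3.03.

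Of the peptide loading genes, Tap1, a subunit of the transporter, was low, at 34.8, 24.4, 27.8, 20.2 and 14.7 in WT littermates and 23, 35.2, 28.8, 28.2 and 12.6 in Dp3Tyb hearts. Its log2 fold change was 0.05 ± 0.30 in Dp3Tyb and -0.10 ± 0.34 in Ts1Rhr (SE), where hearts had 10.8 to 28.5 and WT littermates 13.4 to 45.3. Each group of 5 hearts gave 126 to 154 reads, and the 95% interval in Dp3Tyb was -0.61 to 0.71. What size of change could have been detected was not tested.

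Tapbp had 442, 501, 466, 473 and 311 in WT littermates and 428, 505, 486, 440 and 334 in Dp3Tyb hearts. It had 382, 366, 414, 335 and 576 in WT littermates and 377, 354, 472, 405 and 422 in Ts1Rhr hearts. The log2 fold changes were 0.0048 ± 0.15 and -0.0098 ± 0.14 (SE). The 7 libraries with over 10% mitochondrial reads had 311 to 382, below the 405 to 576 of the other 13, as was so, with the 7 lower, for 6.45% of 15348 genes. Zbtb22 overlaps Tapbp on the same strand, and 15.6% of the 50-base stretches of Tapbp are shared with it.

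**Figure D3:**
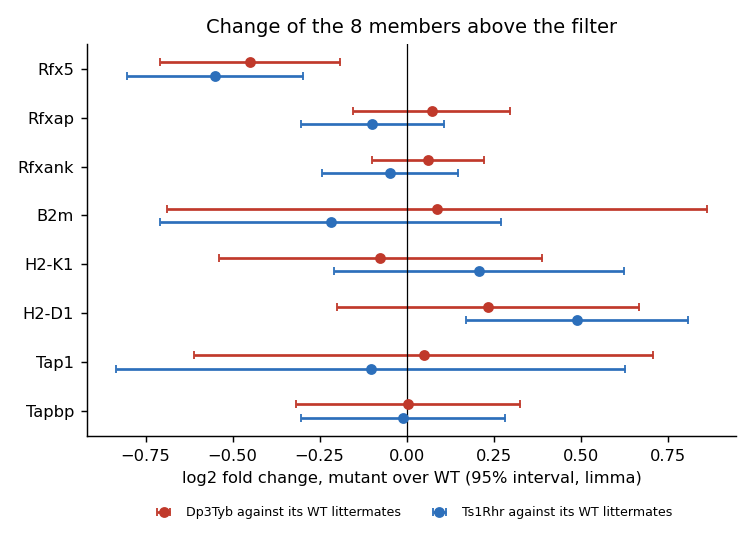
log2 fold change of mutant over WT (horizontal axis) for the 8 members above the filter, as points with the 95% interval of limma, in Dp3Tyb (red) and Ts1Rhr (blue). Rfx5, shown as a description because it was chosen for lower values, lies at -0.45 and -0.55, and its intervals are not a test. Among the tested members the interval of H2-D1 lies above 0 in Ts1Rhr before adjustment over all genes, and the other intervals span 0.

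Of the 9 members other than Rfx5, 7 were tested in each strain and 0 passed an adjusted p of 0.05 by limma in Dp3Tyb, where 0.0542% of all genes tested passed, and 0 passed in Ts1Rhr, where 0.0269% passed. On the recovered reads 0 members passed as well, by edgeR (0.061% of all genes in Dp3Tyb and 0.0269% in Ts1Rhr) and by DESeq2 (0.23% and 0.168%). At an unadjusted p under 0.05 there were 0 in Dp3Tyb, against 2.80% of all genes, and 1 in Ts1Rhr, H2-D1, against 5.52% of all genes, and both counts were the same by edgeR and DESeq2. In Dp3Tyb 6 of the 7 log2 fold changes were positive with a median of 0.06, and in Ts1Rhr 2 were positive with a median of -0.05, while the median over all genes tested was -0.0027 and -0.0016. Adjusted p-values by limma were 1.0 for each of the 7 in Dp3Tyb and 0.795 to 0.987 in Ts1Rhr. The groups of each of these 7 overlapped in both strains.

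The change of a member was not shown to differ between the strains. In an interaction contrast of limma over all 20 libraries 0 of the 7 members passed, where 0.013% of 15348 genes did, and 0 had an unadjusted p under 0.05, as 1.52% of all genes did. By edgeR and DESeq2 0 members passed too, where 0.013% and 0.0195% of all genes did. The largest difference of log2 fold changes, Dp3Tyb minus Ts1Rhr, was 0.31 ± 0.45 for B2m and the lowest was -0.28 ± 0.30 for H2-K1 (SE, limma adjusted p = 1.0 for both). For Rfx5 that difference was 0.10 ± 0.17 (SE), given as a description.

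Between the WT groups of both cohorts 0 of the 7 members passed, as did 0% of all genes tested by limma, and 0 had an unadjusted p under 0.05, as 5.84% of all genes did. By edgeR and DESeq2 0 members passed too, where 0% and 0.0391% of all genes did. H2-K1 differed by 0.44 ± 0.21 (log2, SE, littermates of Dp3Tyb higher, limma adjusted p = 0.833) and B2m by -0.37 ± 0.32 (limma adjusted p = 0.836). For H2-K1 this difference between WT cohorts was larger than that between either strain and its littermates. Rfx5 was 0.11 lower on the log2 scale in the littermates of Dp3Tyb (difference -0.11 ± 0.12, SE).

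Levels were then compared between genes, as normalised read counts per kb of exon in the 10 WT hearts. B2m stood highest at 738 ± 367 per kb (SD, n = 10), with 438 to 1465 in single hearts, and did not overlap with any other member. Rfxap (111 ± 10.9), Tapbp (96.7 ± 18.4), Rfxank (81.5 ± 7.24), Rfx5 (79.9 ± 13.3) and H2-D1 (65.4 ± 15.4) followed, and each overlapped with its neighbour in this order. H2-K1 had 40.2 ± 9.56 per kb and overlapped with H2-D1. Tap1 at 4.08 ± 1.62 per kb was set apart from those above it, and Nlrc5 (0.384 ± 0.379) and Ciita (0.258 ± 0.207) were lowest and overlapped with each other. The light chain gene thus stood above both heavy chain genes per kb in every WT heart, and Rfx5 stood among its partners Rfxank and Rfxap.

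**Figure D4:**
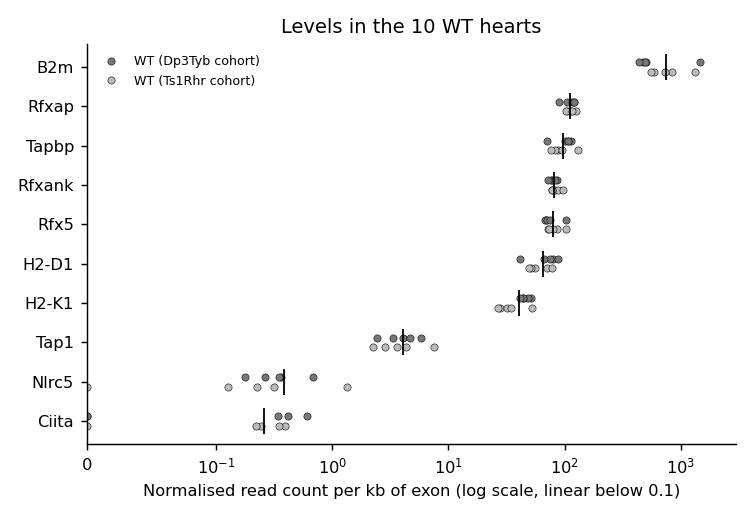
Normalised read count per kb of exon (horizontal axis, log scale, linear below 0.1) of the 10 members in the 10 WT hearts, with points coloured by cohort and a black bar at the mean. B2m lies highest at 438 to 1465 per kb, the 3 RFX complex genes lie together at 67.8 to 124, and Ciita and Nlrc5 lie lowest with some hearts at 0.

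Of 86 other genes of the pathway in 8 lists, 64 were tested in Dp3Tyb and 66 in Ts1Rhr, and 0 passed by limma, edgeR or DESeq2 in either strain. At an unadjusted p under 0.05 limma gave 2 in Dp3Tyb (Rfx3 and Rfx8) and 4 in Ts1Rhr (Gbp3, Ifit3, Mr1 and Nfyb), near the 2.80% and 5.52% of all genes. Values below are log2 fold changes ± SE in Dp3Tyb and then in Ts1Rhr, and medians over all genes tested were those given above.

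Among 6 genes of class I assembly (chaperones, TAP2, an aminopeptidase), 6 and 5 were positive, with medians of 0.07 and 0.05. Tap2, the partner of Tap1, had 0.58 ± 0.45 and 0.34 ± 0.39, which became 0.13 in Dp3Tyb without WT replicate 5 and 0.08 in Ts1Rhr without WT replicate 4. Tapbpl, a relative of tapasin, had 0.07 ± 0.15 and -0.05 ± 0.19. Only 3 of 5 immunoproteasome and activator genes passed the filter, with medians of -0.0051 and 0.16. Their activator subunits Psme2 (0.06 ± 0.15 and 0.16 ± 0.11) and Psme1 (-0.0060 ± 0.17 and -0.06 ± 0.12) differed little, while the catalytic subunits Psmb8 and Psmb9 averaged 2.30 and 1.03 per kb in WT hearts. Of 8 constitutive proteasome genes 3 were positive in each strain, with medians of -0.03 and -0.02. By the mean over both strains Psmb5 was highest (0.05 ± 0.26 and 0.27 ± 0.20) and Psma3 lowest (-0.09 ± 0.17 and -0.14 ± 0.13).

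Of 13 other class I heavy chain genes 7 and 8 were tested, with medians of -0.00020 and 0.0037. By the mean over both strains H2-T23, whose product presents leader peptides of other class I chains, was highest (0.36 ± 0.34 and -0.06 ± 0.23), and Mr1, which presents vitamin B metabolites, was lowest (-0.22 ± 0.24 and -0.48 ± 0.19). Without WT replicate 5 the Dp3Tyb values of H2-T23 and Mr1 were 0.03 and -0.05. Of 13 class II presentation genes 4 and 5 were tested, and 3 in each strain were positive, with medians of 0.20 and 0.19. Among those tested Ctss had 0.28 ± 0.14 and 0.19 ± 0.13, and Ifi30 had 0.12 ± 0.13 and -0.0094 ± 0.10. Cd74 was tested in Ts1Rhr only and had -0.49 ± 0.47. H2-Ab1, a class II β chain, had 0.32 ± 0.15 and 0.31 ± 0.22, and H2-DMa, a subunit of the peptide exchange factor, had -0.35 ± 0.26 and 0.31 ± 0.26. Mean H2-DMa was 14.5 in Dp3Tyb and 14.3 in Ts1Rhr, and 18.6 and 11.4 in their WT littermates. Between the WT groups its unadjusted p was under 0.05 by limma and edgeR, as for 5.84% of all genes by limma, and it did not pass. H2-Ea, whose promoter is deleted in C57BL/6 mice, and H2-Eb2 were at 0 in all 20 hearts.

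For 8 of 8 genes of the NFY complex and CREB family, which bind beside RFX5, and of the histone acetyltransferases Crebbp, Ep300 and Kat2b, the log2 fold change was negative in both strains, with medians of -0.08 and -0.09, and none passed the test. Nfyb, an NFY subunit, was lower without overlap in Ts1Rhr (-0.18 ± 0.06, limma adjusted p = 0.795), as were 0.498% of all genes, and overlapped in Dp3Tyb (-0.01 ± 0.08). Mean Nfyb was 477 in Ts1Rhr and 541 in its WT littermates, and 485 in Dp3Tyb and 489 in its WT littermates. Between the WT groups its unadjusted p was under 0.05 by limma, edgeR and DESeq2, as for 5.84% of all genes by limma, and it did not pass. Creb1, a CREB family factor, had -0.14 ± 0.07 and -0.15 ± 0.07, and Nfya, an NFY subunit, had -0.06 ± 0.05 and -0.02 ± 0.06. Among the other RFX family genes Rfx3, a factor of ciliated cells, had -0.22 ± 0.09 and -0.22 ± 0.10 (limma adjusted p = 1.0 and 0.795), and Rfx1 had 0.16 ± 0.21 and 0.17 ± 0.11. In this family 4 of 5 genes tested were negative in Dp3Tyb and 3 of 5 in Ts1Rhr, with medians of -0.21 and -0.17. For Rfx3 the 5 Dp3Tyb hearts were all below the WT mean, and the groups of Rfx3 overlapped in both strains.

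Of 26 interferon response genes 23 were tested, and 12 were positive in Dp3Tyb and 18 in Ts1Rhr, with medians of 0.02 and 0.11. Irf7, the interferon regulatory factor that amplifies the response, had 0.33 ± 0.36 and 1.1 ± 0.53, and Irf2 had -0.17 ± 0.22 and -0.19 ± 0.19. Markers of macrophages were positive for 14 of 14 genes in Dp3Tyb (median 0.27) and for 11 of 14 in Ts1Rhr (median 0.26), and none passed. At an unadjusted p under 0.05 limma gave 3 of these 14 in Dp3Tyb and 5 in Ts1Rhr, against 2.80% and 5.52% of all genes. Lyz2, a lysozyme gene, was higher without overlap in Ts1Rhr (0.48 ± 0.13, limma adjusted p = 0.795), as were 0.619% of all genes. The summed normalised counts of these 14 markers were 2360 to 2847 in Dp3Tyb against 1703 to 2549, and 2041 to 2915 in Ts1Rhr against 1906 to 2292. Of 9 dendritic and B cell markers 0 passed the filter, their sum was at most 28.2 in any heart, and Xcr1 and Ms4a1 were at 0 in all 20. The part of macrophages in the values of H2-D1 and H2-Ab1 was not tested.

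The neighbourhood of Rfx5 on chromosome 3 was examined for other genes that were lower. Of 61 other protein-coding genes that start within 1 Mb of Rfx5, 44 were tested in Dp3Tyb and 45 in Ts1Rhr. Of these 16 and 18 were negative and 28 and 27 positive, with a median log2 fold change of 0.01 and 0.03. The nearest tested genes were Selenbp1, 17.6 kb before Rfx5 (0.10 ± 0.26 and 0.36 ± 0.24), and Pi4kb, 24 kb after it (0.03 ± 0.12 and 0.14 ± 0.09, log2 fold change ± SE). The groups did not overlap with the mutant lower for 0 neighbours in either strain, where the shares over all genes were 0.474% and 0.498%. By limma and edgeR 0 neighbours passed, with 3 in each strain at an unadjusted p under 0.05, against 2.80% and 5.52% of all genes by limma. Rprd2, one of the 3 in Ts1Rhr, had -0.11 ± 0.08 and -0.17 ± 0.07. Gabpb2, 231 kb after Rfx5, had -0.12 ± 0.06 and -0.13 ± 0.06, with an unadjusted p under 0.05 by DESeq2 in both strains. The groups of both genes overlapped in both strains. The others at that level were Anxa9, Ctsk and Ecm1, all with positive values. By DESeq2 Ctsk and Ecm1 passed in Dp3Tyb and 0 in Ts1Rhr, against 0.23% and 0.168% of all genes.

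Ctsk, which encodes cathepsin K and starts 549 kb from Rfx5, was higher without overlap in both strains (0.42 ± 0.09 and 0.36 ± 0.11, limma adjusted p = 0.440 and 0.795). The groups did not overlap, with the mutant higher, for 0.501% of all genes in Dp3Tyb, for 0.619% in Ts1Rhr and for 0.151% in both. Ecm1, an extracellular matrix gene, was higher without overlap in Dp3Tyb (0.37 ± 0.06, limma adjusted p = 0.0750) and overlapped in Ts1Rhr (0.24 ± 0.08).

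**Figure D5:**
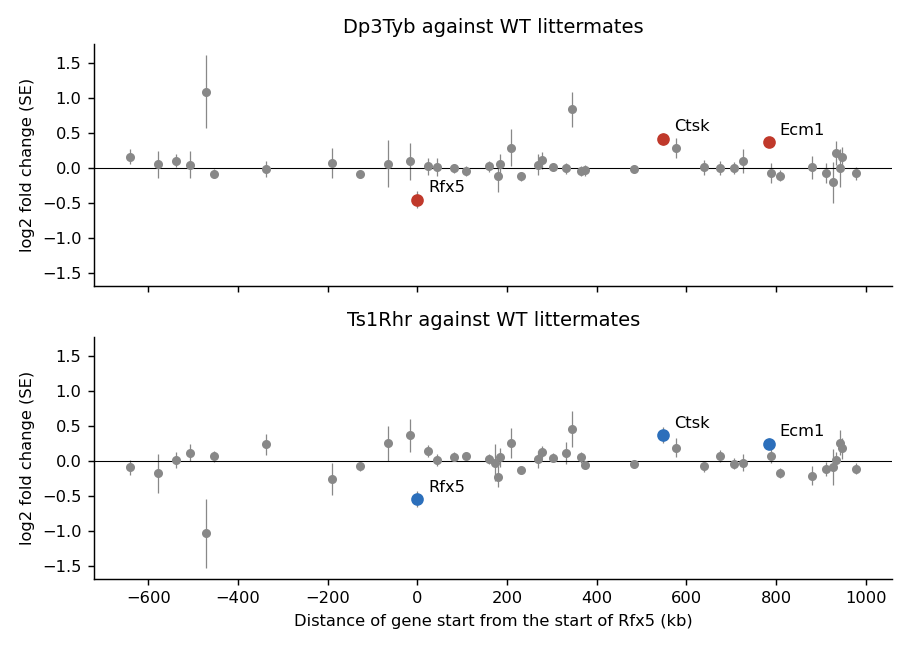
log2 fold change of mutant over WT (vertical axes, points with SE) for each tested protein-coding gene that starts within 1 Mb of Rfx5, against the distance of its start from that of Rfx5 (horizontal axis, kb), in Dp3Tyb (upper panel) and Ts1Rhr (lower panel). Rfx5 lies at -0.45 and -0.55, its nearest tested neighbours lie at 0.03 to 0.36, and Ctsk and Ecm1 lie above 0 in both panels.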

How the data were processed

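RNA of 20 embryonic hearts, 5 in each of 4 groups taken from the genotype labels, was sequenced as mRNA libraries. Per the labels' processing notes the submitters used Trimmomatic 0.36, STAR 2.5.2a, RSEM 1.2.31, DESeq2 and GRCm38. How strand and shared reads were treated is not given in the sources used here. The authors deposited a normalised signal per gene, which is reads divided by a library factor. In each library 100% of values were whole reads (relative tolerance 0.001), so reads could be recovered. Depth was 6.60 to 19.6 M reads, and intervals for reads cover counting error only.

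Tests used limma 3.58.1 (R 4.3.3) on log2(value + 1) with trend and robust options, as a 2-sided test, adjusted by Benjamini-Hochberg over all genes that reached a value of 10 in 5 or more libraries of the fit, at a threshold of 0.05. The same filter was used in the fit of 20 libraries. A fold change on this scale understates low genes. edgeR 4.0.16 and DESeq2 1.42.0 on recovered reads were alternatives. The other alternatives were a pseudocount of 0.1, no filter, TMM scaling, terms for mitochondrial share and sex, libraries over 10% mitochondrial reads left out, and each replicate left out. The pipeline was tested on simulated data. Names and exon lengths came from GENCODE vM39, which held 44565 of 48795 identifiers (91.3%), and positions and promoters from RefSeq GRCm38.p6.

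The members and lists were chosen with earlier results of these data known. The genes named are the members, of each list the genes with the highest and lowest mean log2 fold change over both strains, the 5 most like Rfx5, and, near Rfx5, the nearest tested gene on each side and those that did not overlap in the same direction in both strains. Other genes (Ecm1, Lyz2, Crebbp, Ep300, Kat2b, Ctss, Ifi30, Cd74, and those at an unadjusted p under 0.05) were named after their values were seen. The motif with a spacing of 20 bases was added after the sequences were seen.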

Additional observations from a re-analysis of the deposited data

Results flagged for a closer look

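Each member was examined in each group for a heart that stood far from the other 4, and 4 of 40 groups held one, where chance gives about 1 in 20. In WT littermates of Dp3Tyb, replicate 5 had the highest Rfx5 (611 normalised read count) and the highest B2m (3086), and 19.5% of its reads were mitochondrial. In Dp3Tyb hearts, replicate 5 had the highest B2m (2624), with 15.5% of its reads mitochondrial. In WT littermates of Ts1Rhr, replicate 5 had the highest Nlrc5 (11.3), from 14 reads, with 5.84% of its reads mitochondrial. Without the fifth WT and Dp3Tyb hearts Rfx5 stood at 403 to 440 in 4 WT hearts and at 307 to 340 in 4 Dp3Tyb hearts.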

How the results depend on the processing

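The direction of Rfx5 was fixed by its choice, so its values here are a description. With single hearts left out its log2 fold change was -0.50 to -0.34 in Dp3Tyb, and -0.62 to -0.47 in Ts1Rhr. The number of tested members that passed, and that of pathway genes, was 0 in both strains under every alternative run. The number of all genes called depended on the setting. In Dp3Tyb it was 8, and became 4 with no filter, 34 with DESeq2, 45 with the mitochondrial term, 4 with the sex term, 30 without libraries over 10% mitochondrial reads, and 2 to 13 with single hearts left out, with 13 without WT replicate 5 and at most 6 without any other heart. In Ts1Rhr it was 4, and became 25 with DESeq2, 25 with the mitochondrial term, 0 without those libraries and 1 to 6 with single hearts left out (6 without WT replicate 5). For the difference between strains it was 2, and became 0 with no filter, 0 with the sex term and 0 to 3 with single hearts left out. Between WT groups it was 0, and became 6 with DESeq2, 3 with the mitochondrial term and 0 to 2 with single hearts left out. The cause of these shifts was not tested. Small changes, none of which passed, turned sign in Dp3Tyb without those libraries (Rfxap -0.0291, H2-K1 0.0441, Tapbp -0.0198, Psme1 0.0429, Psmb5 -0.00465), with the mitochondrial term (Tapbp -0.0118, Psme1 0.0150), with DESeq2 (Tapbp -0.0109) and with edgeR (Tapbp -0.00910). They did so in Ts1Rhr without those libraries (Tapbpl 0.0116, Nfya 0.0646) and with the mitochondrial term (Psme1 0.0429). With single hearts left out, log2 fold changes on both sides of 0 were found in Dp3Tyb for Rfxap (-0.00316 to 0.107), B2m (-0.159 to 0.413), H2-K1 (-0.221 to 0.0784), Tap1 (-0.111 to 0.272), Tapbp (-0.114 to 0.0989), Tapbpl (-0.0220 to 0.121), Psme2 (-0.0350 to 0.187), Psme1 (-0.111 to 0.148), Rfx1 (-0.0473 to 0.265), Irf2 (-0.325 to 0.0127), Psmb5 (-0.182 to 0.222) and Psma3 (-0.174 to 0.0665). In Ts1Rhr they were found for Rfxank (-0.0794 to 0.00571), Tap1 (-0.282 to 0.139), Tapbp (-0.0799 to 0.115), Tapbpl (-0.198 to 0.0241), Psme1 (-0.114 to 0.0462) and H2-T23 (-0.173 to 0.0692). Of 24 genes with values in each strain, 12 in Dp3Tyb and 18 in Ts1Rhr kept their sign with each single heart left out, and 8 and 13 of these moved by over 1.5 times. In Dp3Tyb the 8 were Rfxank, H2-D1, Tap2, H2-T23, Mr1, H2-DMa, Nfya and Irf7 (0.131 to 0.592). In Ts1Rhr the 13 were Rfxap, B2m, H2-K1, Tap2, Psme2, H2-DMa, Nfya, Rfx1, Rfx3, Irf7 (0.653 to 1.42), Irf2, Psmb5 and Psma3. No paired analysis was possible because the labels give no replicate numbers shared between groups.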
